A study of Rattus norvegicus with 44 samples.

Results

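The angiopoietin and VEGF signaling genes described here are 6 genes of the table of normalized values, Angpt1, Angpt2, Tek, Tie1, Vegfa and Kdr, out of 18347 gene identifiers. They were taken by symbol, and the rows of each identifier were summed. Angpt2 was chosen by its normalized level, which was higher in older rats given vehicle than in young rats, so that contrast is given as a description, with no test. All 6 genes had a mean above the minimum of 5 normalized units and were among the 15598 genes tested. The values came from the dentate gyrus (DG), the hippocampal region that receives most of its input from the entorhinal cortex.

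RNA was sequenced from 1 DG sample of each of 44 male F344 rats, an inbred rat strain, in 4 groups. Young rats (YNG, n = 10) were 6 months old. The other rats were 12 months old when oral gavage began and were treated in 5-day cycles for about 6 months with vehicle (AV, n = 12), with 12 mg/kg ABT-263 (AA, n = 11), or with 1.2 mg/kg dasatinib plus 12 mg/kg quercetin (ADQ, n = 11). ABT-263 (navitoclax) blocks survival proteins of the Bcl-2 family, dasatinib is a kinase inhibitor and quercetin is a plant flavonol, and both treatments are used as senolytics, agents that kill senescent cells. The tissue of each rat came from a single hemisphere, in older rats 2 weeks after the final treatment. The deposited labels give age only, and an attribute table of the authors, matched by rat name, gave the treatments. It names the YNG group as young rats given vehicle, but the study's methods describe no gavage of YNG rats. Any difference in gavage between AV and YNG therefore cannot be told apart from age.

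Vegfa encodes the secreted growth factor that drives the sprouting of vessels and opens the endothelial barrier, and Kdr encodes VEGFR2, the endothelial receptor kinase through which it mainly acts. Angpt1, made by perivascular cells and others, activates the endothelial receptor kinase Tie2 (the product of Tek) and keeps vessels quiet and tight. Angpt2 is stored and released by endothelial cells and often opposes Angpt1 at Tie2, and Tie1 is a related receptor that modifies Tie2 signaling. In adult brain Angpt2 is low, while Tek, Tie1 and Kdr mark the endothelium.

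Windows of 250 bases before and 50 bases after the start site were read from RefSeq (assembly GRCr8) for 3 of the 6 genes, Kdr, Vegfa and Tie1. Windows of Angpt1, Angpt2 and Tek were not matched. The 3 are set beside the values because Kdr and Vegfa had the same 4 highest rats as Angpt2, and Tie1 had 3 of these 4. Capitals mark either strand of the hypoxia-response core (ACGTG or GCGTG) or of an ETS core (CGGAA). All sequences run 5′ to 3′ along the gene. The Kdr window is chr14:32571813-32572112 on the plus strand, the Vegfa window is chr9:22452604-22452903 on the plus strand and the Tie1 window is chr5:137304932-137305231 on the minus strand.
Kdr: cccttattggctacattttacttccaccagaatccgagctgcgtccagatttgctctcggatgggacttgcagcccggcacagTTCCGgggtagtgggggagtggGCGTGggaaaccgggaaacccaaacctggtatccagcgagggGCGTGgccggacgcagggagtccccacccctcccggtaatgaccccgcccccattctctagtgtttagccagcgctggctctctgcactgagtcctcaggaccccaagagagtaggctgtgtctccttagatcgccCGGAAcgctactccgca
Vegfa: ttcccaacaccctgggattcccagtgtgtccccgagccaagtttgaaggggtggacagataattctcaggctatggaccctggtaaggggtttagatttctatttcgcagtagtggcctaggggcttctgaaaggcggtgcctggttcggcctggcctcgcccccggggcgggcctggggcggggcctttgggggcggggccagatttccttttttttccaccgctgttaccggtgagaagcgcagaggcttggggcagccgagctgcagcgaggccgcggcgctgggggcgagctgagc
Tie1: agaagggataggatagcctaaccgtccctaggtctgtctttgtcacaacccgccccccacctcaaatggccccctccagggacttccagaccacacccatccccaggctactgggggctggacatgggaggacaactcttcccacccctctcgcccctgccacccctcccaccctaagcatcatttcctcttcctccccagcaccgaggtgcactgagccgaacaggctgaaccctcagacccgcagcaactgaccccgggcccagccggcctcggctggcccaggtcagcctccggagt

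The Kdr window held 2 hypoxia cores, whose first bases lie 145 and 103 bases before the start, and 2 ETS cores, 1 beginning 167 bases before the start and 1 at base 34 after it. Of all 33469 windows of this length, 41.6% held a hypoxia core and 30.4% an ETS core. The Vegfa and Tie1 windows held neither set of letters, nor did the second Vegfa window listed by RefSeq (chr9:22460028-22460327, plus strand). These matches describe letters only.

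The total of normalized values was between 14297964 and 20579982 per rat. The deposited values are scaled by a factor per library, so the read depth behind them is not known from the table and they were treated as signal. The summed level of 7 dentate granule cell markers was between 3999 and 15417 normalized units, with 1 of these, Tdo2, at 0 in 28 rats, and that of 7 markers of the neighboring CA1 pyramidal cells was between 3250 and 45770. Rat numbers fall into 2 series, a (3890 to 4011 and V1 to V6) and b (the others), for which the labels name no batch. One AV library, rat 3989, stood apart, with the highest summed level of endothelial cell (20323), astrocyte (140277), microglial (12223), oligodendrocyte (182154) and red blood cell markers (95413) of all 44 rats. Its meningeal markers were also the highest of all rats (654). Its granule cell markers were the lowest of AV (7131) and its CA1 markers the highest of AV (31136). The lowest and highest of the 40 rats outside the 4 named below were 3426 and 8854 for the endothelial list and 2435 and 39430 for the red blood cell list.

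Angpt2 in AV was carried by 4 of 12 rats. Its normalized values were 1634 in rat 3989, 487 in rat 4568, 381 in rat 4009 and 307 in rat 3999. The other 8 AV rats had values of 7.14, 15.6, 15.8, 21.4, 21.5, 27.8, 32.4 and 33.9. No rat lay between 42.2 and 307, so the 4 rats were separated from the 40 others by a gap and 7 of the 8 remaining AV rats lay within the range of AA and ADQ, while rat 4011 (7.14) lay below it.

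The lowest, median and highest values of Angpt2 were 4.51, 11.9 and 20.2 in YNG. In AA they were 12.0, 25.4 and 39.4, and in ADQ they were 8.15, 16.7 and 42.2. The AV values ran from 7.14 to 1634 with a median of 30.1, and all 4 groups overlapped. By median the order was AV, AA, ADQ and YNG, and neighbors in this order overlapped. Rat 3989 had 91.4 times the median of the 40 others, and rats 4568, 4009 and 3999 had 27.2, 21.3 and 17.2 times this median.

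On the scale of log2(value + 1), the mean of Angpt2 was 5.97 ± 2.45 (SD, n = 12) in AV and 3.57 ± 0.63 (n = 10) in YNG, a difference of 2.40 ± 0.56 (SE). Leaving out the 4 rats, a choice made after their values were seen, gave 0.83 ± 0.29. Of the 12 AV rats, 11 were above the YNG median. The smaller difference left by the 8 rats was close to those of AA (1.06) and ADQ (0.69) from YNG. The SE of these last differences was 0.57 in the fit of 44 rats and 0.26 in the fit of 40, since the fit shares 1 estimate of the spread among all groups. No test was made of these contrasts, because their YNG rats entered the choice of the gene.

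The difference from AV was −1.34 ± 0.55 for AA and −1.71 ± 0.55 for ADQ on this scale. Without the 4 rats AA was 0.23 ± 0.28 above AV and ADQ 0.13 ± 0.28 below it. These contrasts contain the AV rats that picked the gene and were not tested. The 1 comparison that used neither AV nor YNG rats was AA against ADQ, where Angpt2 was higher in AA by 0.37 ± 0.56 and 9 of 11 AA rats were above the ADQ median. This difference did not pass the threshold by limma (unadjusted p = 0.511, adjusted p = 0.983) nor by a two-sided permutation test on the 22 rats (p = 0.143 with 100000 resamples).

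**Figure D1:**
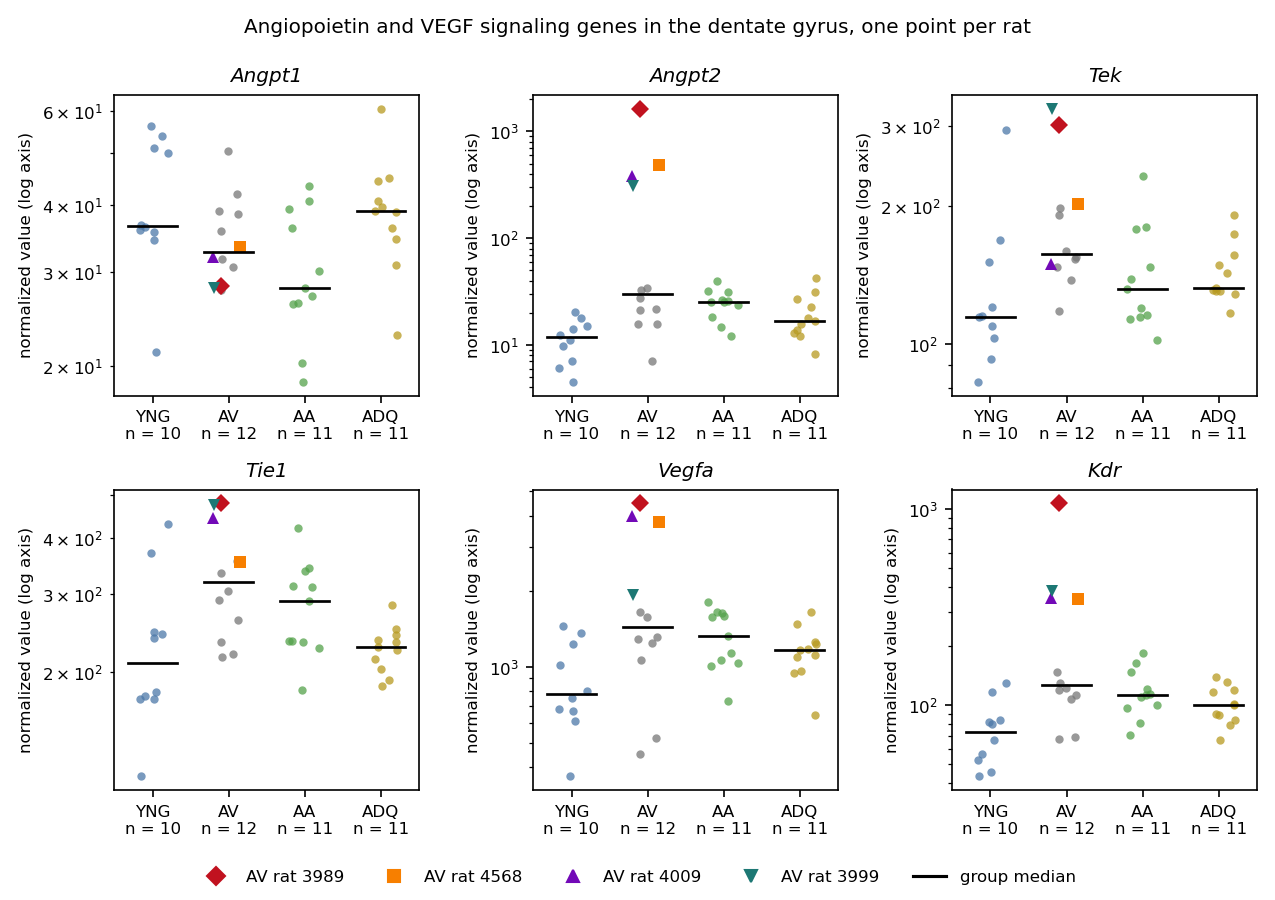
Normalized value (log axis) of each of the 6 genes in each rat, by group, with the group median as a line and the 4 AV rats with Angpt2 above 300 drawn as separate symbols. These 4 rats stand above every other rat for Angpt2, Vegfa and Kdr, while for Angpt1 they lie between 28.04 and 33.4, inside the range of the others.

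Vegfa, the main VEGF ligand, was also highest in the same 4 rats. It reached 4481 in rat 3989, 3986 in rat 4009, 3759 in rat 4568 and 1928 in rat 3999. The next rat, AA rat 3988, was at 1820. The 4 rats were thus above all others, although the margin of rat 3999 was small.

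The lowest, median and highest values of Vegfa were 367, 780 and 1459 in YNG. In AV they were 452, 1447 and 4481, in AA 730, 1324 and 1820, and in ADQ 643, 1167 and 1652. The medians had the order AV, AA, ADQ and YNG, and the groups overlapped throughout. The difference of AV from YNG was 0.89 ± 0.27 (log2 scale) and became 0.33 ± 0.23 without the 4 rats.

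Among the 6 genes, Kdr showed the widest separation of the 4 rats after Angpt2. It was 1071 in rat 3989, 381 in rat 3999, 350 in rat 4009 and 348 in rat 4568, or 10.6, 3.79, 3.48 and 3.46 times the median of the 40 others. The highest of these 40 was 184, in AA rat 3996. Lowest, median and highest values were 43.4, 73.0 and 130 in YNG, 67.4, 126 and 1071 in AV, 70.4, 112 and 184 in AA, and 66.7, 99.6 and 139 in ADQ. The medians had the same order as for Vegfa, and neighbors overlapped. The log2 difference of AV from YNG was 1.28 ± 0.29, and 0.57 ± 0.20 without the 4 rats.

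Tek, the gene of the angiopoietin receptor Tie2, followed the 4 rats only in part. Rats 3999 and 3989 were the 2 highest at 327 and 302, rat 4568 ranked 5 at 203 and rat 4009 ranked 18 at 149. The third highest rat was a young one, V12, at 294. The lowest, median and highest values were 82.5, 115 and 294 in YNG, 118, 157 and 327 in AV, 102, 132 and 234 in AA, and 117, 132 and 191 in ADQ. The medians of AA and ADQ were nearly equal and lay between those of AV and YNG, and all 4 ranges overlapped. All 12 AV rats were above the YNG median. The difference of AV from YNG was 0.49 ± 0.17, and 0.30 ± 0.17 without the 4 rats.

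Tie1, the related receptor without a clear ligand of its own, was highest in rat 3989 (480), followed by rats 3999 (476) and 4009 (444). Rat 4568 ranked 8 at 353, below YNG rat V12 (431) and AA rat 4107 (423). Lowest, median and highest values were 116, 209 and 431 in YNG, 215, 319 and 480 in AV, 182, 289 and 423 in AA, and 186, 227 and 282 in ADQ. By median the order was AV, AA, ADQ and YNG, with overlap between neighbors. Every ADQ rat was below the AV median. The difference of AV from YNG was 0.54 ± 0.16, and 0.31 ± 0.17 without the 4 rats.

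Angpt1, the ligand that activates Tie2, did not share this pattern. It was 33.4, 31.99, 28.3 and 28.04 in rats 4568, 4009, 3989 and 3999, which ranked between 28 and 35 of 44. Its lowest, median and highest values were 21.3, 36.6 and 56.2 in YNG, 27.8, 32.7 and 50.4 in AV, 18.7, 27.98 and 43.4 in AA, and 22.9, 39.04 and 60.6 in ADQ. The medians had the order ADQ, YNG, AV and AA with overlapping ranges, and the difference of AV from YNG was −0.21 ± 0.16.

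In AV against YNG, the contrast that picked Angpt2, 4 of the 5 other genes passed an unadjusted p of 0.05 (all but Angpt1), where 21.3% of all genes tested passed (2.35% after adjustment). Without the 4 rats 1 of the 5 passed, Kdr, where 9.32% of all genes did. No reading is taken from these counts. Among all genes tested, 142 (0.91%) had the same 4 highest rats as Angpt2, and 414 (2.65%) had at least 3 of these rats among their 4 highest.

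**Figure D2:**
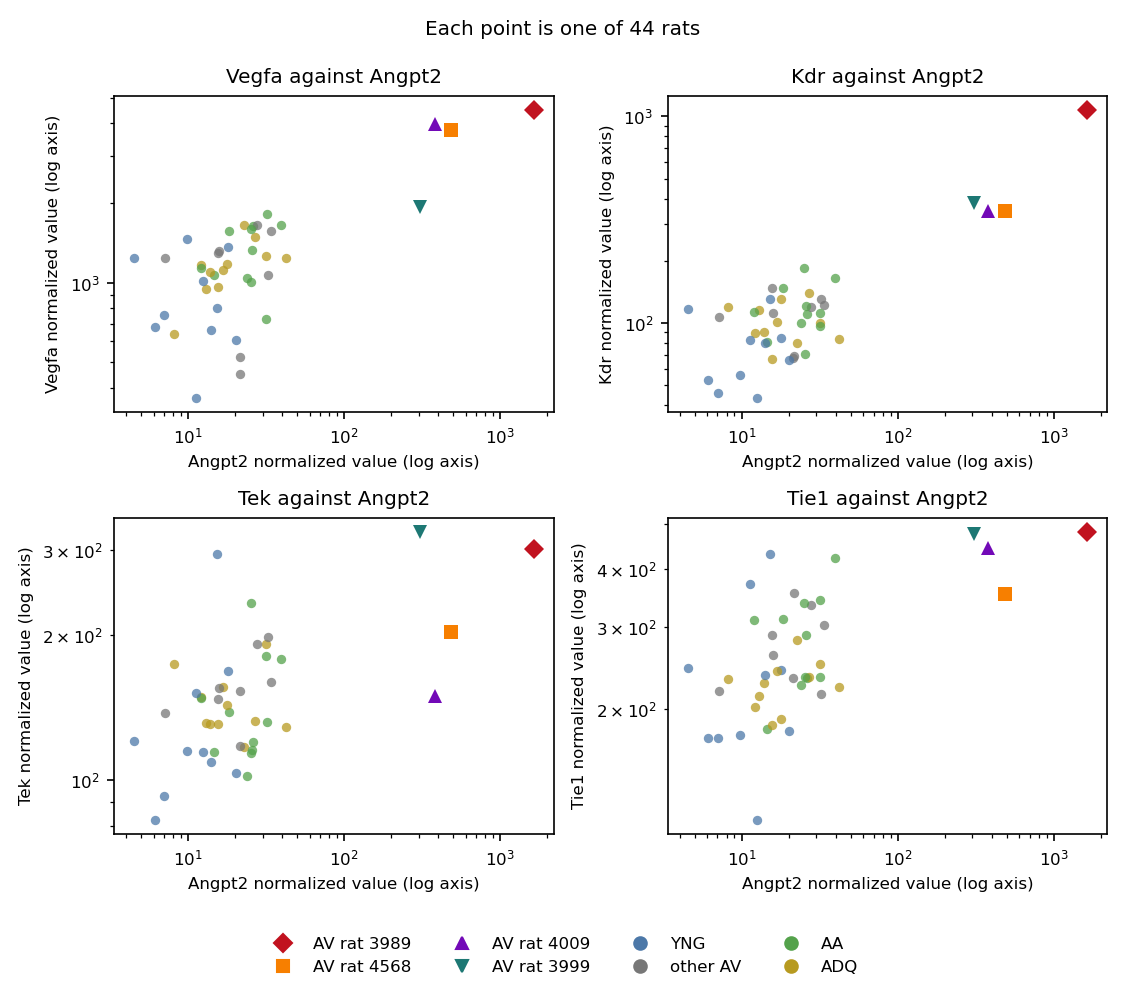
Vegfa, Kdr, Tek and Tie1 against Angpt2, both axes logarithmic, 1 point per rat, colored by group. The 4 AV rats lie apart at Angpt2 values of 307 to 1634, while the 40 others form a single cloud between 4.51 and 42.2.

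Across the 44 rats, with each group's mean subtracted, the log2 values of Angpt2 had a Pearson r of 0.76 with Kdr and 0.64 with Vegfa. Across the 40 rats these values were 0.07 and 0.14. With Tek, r was 0.46 over the 44 rats and 0.27 over the 40, and with Tie1 it was 0.48 and 0.24. The relation of Angpt2 to Kdr and Vegfa therefore rested on the 4 rats, which share a group, and that to Tek and Tie1 was weaker without them. Tek, Tie1 and Kdr kept a relation in both sets, with r of 0.69 and 0.66 for Tek and Tie1, 0.66 and 0.65 for Tek and Kdr, and 0.66 and 0.60 for Tie1 and Kdr (44 and 40 rats). Vegfa and Kdr had r of 0.66 and 0.32. These values are descriptions over libraries that also share their cell makeup and scaling.

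The genes most like each member were sought among 13698 genes with a mean of at least 20. For Angpt2 they were Abca4, Anxa2 and Fxyd5 (r of 0.84 for each over 44 rats, and 0.23, 0.24 and 0.43 over 40). Over the 40 rats alone they were Ccdc163, Rfxank and Ifitm3 (r of 0.61, 0.60 and 0.60, and 0.24, 0.37 and 0.79 over 44). For Kdr they were Fn1 (0.93 and 0.78), the fibronectin gene, Podxl (0.88 and 0.70) and Vwf (0.88 and 0.62), the gene of von Willebrand factor. For Tie1 they were Mmrn2 (0.85 and 0.83), Flt1 (0.83 in both sets) and Acvrl1 (0.82 and 0.84), and for Tek they were Olfml2a (0.84 in both sets), Cgnl1 (0.84 and 0.81) and Adgrf5 (0.82 and 0.84). Vegfa was most like Esyt1 (0.90 and 0.86), Clec2g (0.86 and 0.81) and Notch4 (0.85 and 0.75). Angpt1 was most like Fzd3 (0.78 and 0.81), Psd3 (0.77 and 0.81) and Bmpr2 (0.75 and 0.79).

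The deposited table splits some genes into rows, which allowed the pattern to be read row by row. Vegfa had 5 rows, of which the largest held 58.6% of its mean value, and all 4 rats were the 4 highest in that row. The second row, with 22.9%, had 3 of them. Kdr had 3 rows, and the largest, with 98.4%, had all 4. Tie1 had 3 rows with 84.6%, 14.95% and 0.46% of the mean. In the largest row of Tie1 AV was above YNG by 0.61 on the log2 scale, and in the second it was below by 0.10. Angpt1, Angpt2 and Tek had 1 row each.

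In AA against YNG, 4 of the 5 genes other than Angpt2 passed the unadjusted threshold, where 26.6% of all genes passed, and none passed after adjustment, where 3.85% did. Kdr was higher in AA by 0.67 ± 0.30 (log2 scale, limma unadjusted p = 0.0293, adjusted p = 0.142), with 10 of 11 rats above the YNG median. Vegfa was higher by 0.63 ± 0.28 (p = 0.0301, adjusted p = 0.143) in 10 of 11 rats, and Tie1 by 0.34 ± 0.17 (p = 0.0484, adjusted p = 0.185), also in 10 of 11. Angpt1 was lower by 0.41 ± 0.16 (p = 0.0128, adjusted p = 0.0971), with 8 of 11 AA rats below the YNG median. Tek differed by 0.14 ± 0.17 (p = 0.424). In the fit without the 4 AV rats, which leaves these differences as they are and narrows the shared spread, Kdr passed after adjustment as well (adjusted p = 0.0307). Kdr has the same 4 highest rats as Angpt2, by which they were left out, so nothing is read from this call.

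Single rats decided several of these calls. Vegfa lost its call without AA rat 3988 or YNG rats V1 or V9, and Kdr without AA rat 3996 or YNG rats V2 or V5, with p between 0.0513 and 0.082 for both genes. The call of Tie1 was lost without any 1 of 25 rats (p up to 0.148). These were AA rats 3984, 3985, 3996, 4035, 4077 and 4107, YNG rats V1, V2, V4, V5 and V6, ADQ rats 3994, 4005, 4006, 4007, 4031, 4074, 4105, 4106 and 4110, and AV rats 4010, 4566, 4568, 4571 and 4572. The count of called genes fell from 4 to 2 without AA rat 3996 or YNG rats V1, V2 or V5.

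In ADQ against YNG none of the 5 genes passed by limma, adjusted or not, where 28.1% of all genes did unadjusted and 7.08% adjusted. Kdr was higher by 0.47 ± 0.30 (p = 0.119) and Vegfa by 0.45 ± 0.28 (p = 0.118), each with 10 of 11 ADQ rats above the YNG median. In the fit without the 4 AV rats both passed, with unchanged differences and unadjusted p of 0.0118 and 0.0448 (adjusted p = 0.0787 and 0.158), where 29.7% of all genes passed. Both genes are highest in the 4 rats left out, so the shared spread narrowed through that choice and nothing is read from these calls. Tek (0.17 ± 0.17), Tie1 (0.04 ± 0.17) and Angpt1 (−0.05 ± 0.16) had unadjusted p of 0.311, 0.824 and 0.754.

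Against vehicle, Tie1 and Kdr were lower in ADQ, and Tek and Kdr in AA, at the unadjusted threshold. The AV rats of both contrasts entered the choice of Angpt2, and its 4 highest rats were also those of Kdr. Nothing is therefore read from the counts of calls against AV. In ADQ against AV, Tie1 was lower by 0.50 ± 0.16 (limma unadjusted p = 0.00285, adjusted p = 0.266) in 11 of 11 rats, and Kdr by 0.81 ± 0.29 (p = 0.00688, adjusted p = 0.367) in 9 of 11, so 2 of 5 genes passed where 9.32% of all genes did. Without the 4 AV rats the differences were −0.28 (p = 0.101) and −0.09 (p = 0.636), and neither passed. Tek lay at −0.32 ± 0.16 (p = 0.0539) and Vegfa at −0.45 ± 0.27 (p = 0.0998). Without AV rat 4567 or 4572 both also passed, giving 4 of 5. Tek passed as well without AV rats 4009, 4011, 4566 or 4569, ADQ rats 4005 or 4106, AA rat 3996 or YNG rats V4 or V12 (p between 0.0258 and 0.0497 over all 11).

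In AA against AV, Tek was lower by 0.36 ± 0.16 (p = 0.0325, adjusted p = 0.999) and Kdr by 0.61 ± 0.29 (p = 0.0377, adjusted p = 0.999), each in 8 of 11 rats, where 4.51% of all genes passed. Without the 4 AV rats the differences were −0.16 (p = 0.324) and +0.11 (p = 0.585). Either call could rest on 1 library. Tek lost it without AV rats 3989 or 3999 or AA rats 3983, 4036, 4069, 4070 or 4077, and Kdr without any of the 4 AV rats or AA rats 3988, 4036, 4069 or 4070. Tie1 (−0.20 ± 0.16, p = 0.212), Vegfa (−0.27 ± 0.27, p = 0.321) and Angpt1 (−0.20 ± 0.15, p = 0.186) did not pass.

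Between the 2 treatments no gene passed after adjustment by limma. At the unadjusted threshold Angpt1 was lower in AA than in ADQ by 0.36 ± 0.16 (limma unadjusted p = 0.0242, adjusted p = 0.981), with 8 of 11 AA rats below the ADQ median, in a comparison that holds no AV rat. It was the 1 of 6 genes that passed, where 4.53% of all genes did, and nothing is read from 1 call at that rate. The call was lost without AA rats 3983 or 4036 or ADQ rat 4074 (p between 0.0543 and 0.0612). Tie1 (0.30 ± 0.16, p = 0.0708) passed only when AA rat 4036 was left out (p = 0.0321), and Tek (−0.04), Vegfa (0.18) and Kdr (0.20) had p of 0.825, 0.511 and 0.503.

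**Figure D3:**
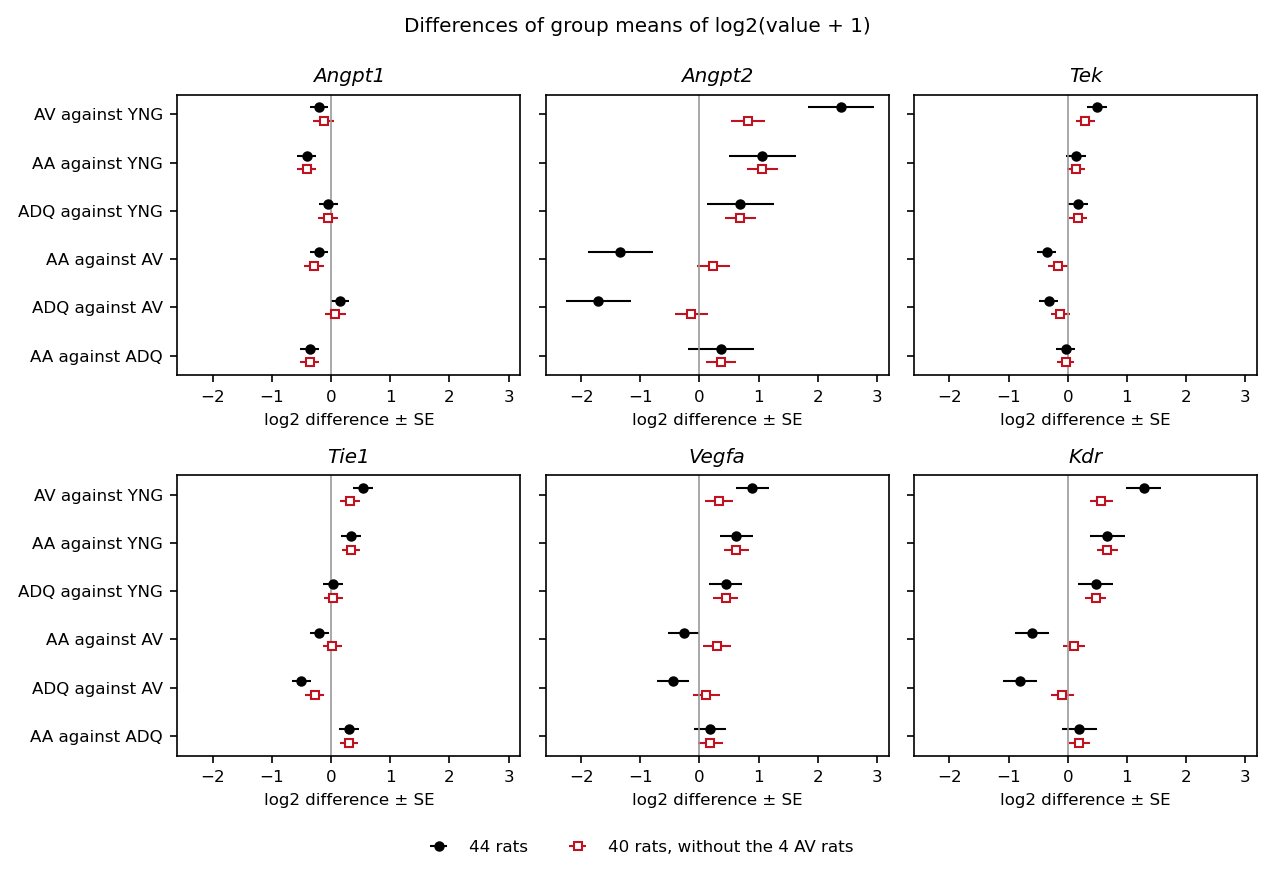
Difference of group means of log2(value + 1) with its SE for each gene and comparison, for all 44 rats (filled) and for the 40 rats left without the 4 AV rats (open). The 3 comparisons that contain AV shift for Angpt2, Vegfa and Kdr, from 2.40 to 0.83 for Angpt2 in AV against YNG and from −0.81 to −0.09 for Kdr in ADQ against AV.

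The comparisons with YNG also depended on the series of rat numbers. In series a, Tek in YNG had a median of 106 and a highest value of 115, and in series b a median of 160 and a lowest value of 120, so the 2 sets of young rats did not overlap. The same held for Tie1, with 116 to 238 and 243 to 431 in the series, for Kdr, with 43.4 to 79.9 and 82.5 to 130, and for Angpt1, with 21.3 to 36.7 and 49.97 to 56.2. The older groups showed no such split in these genes, since their 2 series overlapped.

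Within series a the difference of AV from YNG was 0.96 for Tek, 0.96 for Tie1 and 2.14 for Kdr, and within series b it was −0.13, −0.05 and 0.26. For Angpt2 it was 3.23 in series a, which holds 3 of the 4 rats, and 1.56 in series b. AA against YNG was 0.61 for Tek in series a and −0.46 in series b, and 0.74 and −0.22 for Tie1. ADQ against YNG was 0.43 for Tie1 in series a and −0.52 in series b. For Angpt1 it was 0.12 in series a and −0.37 in series b. The direction of Tek and Tie1 against YNG, and of Angpt1 in ADQ against YNG, therefore turned between the series. The difference between the series was −1.06 for Tek (interaction term, limma unadjusted p = 0.0011, adjusted p = 0.0555) and −0.96 for Tie1 (p = 0.00246, adjusted p = 0.0803) in AA against YNG, where 17.3% of all genes passed. What the series stand for was not tested, and the libraries and the animals cannot be told apart.

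The other called differences were also read within each series. For AA against YNG they were 0.77 and 0.50 for Vegfa, 1.16 and 0.04 for Kdr, and −0.15 and −0.81 for Angpt1 in series a and b. Between older groups, Tie1 was lower in ADQ than in AV by 0.53 in series a and by 0.47 in series b, and Kdr by 1.38 and 0.24. Tek was lower in AA than in AV by 0.36 and 0.33, and Kdr by 0.98 and 0.22. Angpt1 was lower in AA than in ADQ by 0.27 and 0.44. These comparisons between older groups kept their direction in both series.

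**Figure D4:**
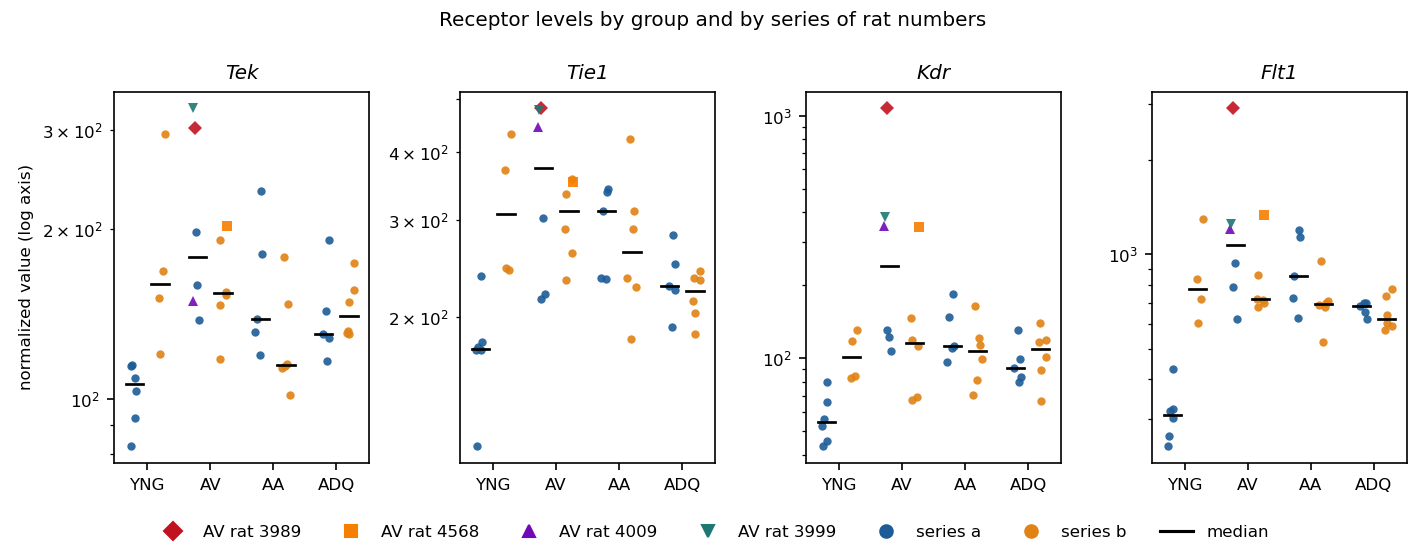
Normalized value (log axis) of Tek, Tie1, Kdr and Flt1 in each rat by group, with series a and series b side by side, their medians as lines and the 4 AV rats as separate symbols. The YNG rats of series a lie below those of series b for all 4 genes, for Flt1 at 245 to 432 against 606 to 1297.

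Other genes of the pathway were read from 5 lists of 117 genes, of which 110 were tested. In AV against YNG 35 were higher and 8 lower at the unadjusted threshold, where 10.6% of all genes were higher and 10.7% lower. Without the 4 rats 15 were higher and 4 lower, where 9.32% of all genes passed in either direction. These counts are a description, since the contrast picked Angpt2. In AA against YNG 21 were higher and 13 lower (4 and 4 after adjustment), and in ADQ against YNG 21 and 16 (4 and 7 after adjustment). After adjustment 3.85% of all genes passed in AA and 7.08% in ADQ. Over all genes 12.6% were higher and 14.1% lower in AA, and 13.5% and 14.6% in ADQ, so the counts of lower genes were near the background. The medians over the lists were 0.04 and 0.05, against 0.001 and 0.006 over all genes tested. Between older groups 0 were higher and 11 lower in AA against AV, and 3 were higher and 23 lower in ADQ against AV. Over all genes 1.4% were higher and 3.1% lower in AA, and 3.42% higher and 5.9% lower in ADQ. Without the 4 rats these became 0 and 0, and 1 and 6, where 2.42% and 4.84% of all genes passed. The list medians were −0.08 and −0.15 with all rats and −0.02 and −0.06 without the 4, against 0.001 and 0.008 over all genes with all rats. No gene passed after adjustment in either comparison by limma.

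Among the other ligands, Pgf (placental growth factor, a ligand of Flt1) and Vegfc (the lymphatic VEGF) shared the 4 highest rats with Angpt2. Pgf was 48.0 in rat 4009, 40.4 in rat 3999, 25.7 in rat 4568 and 21.7 in rat 3989, against at most 19.8 elsewhere. Vegfc was 19.2 to 28.3 in the 4 rats against at most 18.6, and was lower in AA than in AV by 0.70 (unadjusted p = 0.0241), a call lost without the 4 rats (−0.30, p = 0.346) and without AV rat 3989 or AA rats 3985 or 4035. Vegfb, a Flt1 ligand, did not share the pattern. It was lower than YNG in AA by 0.32 (p = 0.0204) and in ADQ by 0.27 (p = 0.0499). In series b alone the direction turned, with Vegfb above YNG by 0.031 in AA and by 0.030 in ADQ. The call in ADQ was lost without any 1 of 27 rats (p up to 0.111). These were AA rats 3985, 3988, 3996, 4035, 4036, 4069, 4070 and 4077, ADQ rats 3994, 4004, 4005, 4006, 4007, 4032 and 4074, AV rats 3890, 3999, 4566, 4568 and 4569, and YNG rats V1, V2, V3, V4, V6, V9 and V12. Angpt4, a further Tie2 ligand, was lower in ADQ than in AV by 0.59 (p = 0.0167, and 0.0839 without the 4 rats).

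Of 12 other receptors and partners, Flt1 (VEGFR1, a receptor that also traps VEGF) and Ptprb (VE-PTP, the phosphatase of Tie2) had the smallest p in AA against YNG, and Nrp1 and Ptprb in ADQ against YNG. Flt1 had lowest, median and highest values of 245, 377 and 1297 in YNG, 624.7, 822 and 2910 in AV, 524, 708 and 1191 in AA, and 573, 657 and 775 in ADQ. It was higher than YNG by 0.76 ± 0.22 in AA (limma adjusted p = 0.0479) and by 0.53 ± 0.22 in ADQ (adjusted p = 0.118). In AV it stood 1.06 above YNG, and 0.70 without the 4 rats. Ptprb was higher than YNG by 0.96 ± 0.26 in AA (adjusted p = 0.0401) and by 0.75 ± 0.26 in ADQ (adjusted p = 0.0641). Within series b both were lower than in YNG in AA, by 0.25 (unadjusted p = 0.215) for Flt1 and 0.33 (p = 0.131) for Ptprb, and Ptprb in ADQ was at −0.42 there.

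Nrp1, the neuropilin coreceptor of VEGF, was higher in ADQ than in YNG by 0.38 ± 0.12 (adjusted p = 0.0439) and lower in AA than in ADQ by 0.33 ± 0.12 (unadjusted p = 0.00727, adjusted p = 0.981). It did not follow Angpt2 in the 4 rats, which ranked 10, 16, 20 and 44 of 44. In ADQ against AV, Flt4 (VEGFR3) was lower by 0.61 (unadjusted p = 0.00724) and Flt1 by 0.53 (p = 0.0172). Without the 4 rats these were −0.27 (p = 0.228) and −0.18 (p = 0.383), and Flt1 lost its call without rat 3989 alone. In AA against AV, Itgb1, an integrin subunit, was lower by 0.27 (p = 0.0117, and 0.117 without the 4 rats).

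The angiogenic endothelial list, genes that endothelial cells raise during sprouting or matrix building, had 9 of 23 genes with the same 4 highest rats as Angpt2. They were Adamts1, Cd93, Clec14a, Col4a1, Dll4, Jag1, Lama4, Nid2 and Notch4. Dll4, a Notch ligand of sprouting tip cells, was 211 in rat 3989, 163 in rat 4009, 153 in rat 4568 and 106 in rat 3999, against at most 104 in the 40 others. It was higher than YNG in AA by 0.99 ± 0.27 (adjusted p = 0.0406). Cd93, a receptor of endothelial cells, was between 199 and 340 in the 4 rats and at most 82.6 elsewhere, and was lower in ADQ than in AV by 0.85 (unadjusted p = 0.00273) and in AA by 0.83 (p = 0.00325). Without the 4 rats these were −0.13 and −0.11 (p = 0.465 and 0.523). Adamts1, a secreted protease, was lower in ADQ than in AV by 0.92 (p = 0.00648, and 0.469 without the 4 rats), and Mcam, an adhesion molecule of vessel walls, was lower in AA by 0.53 (p = 0.0162, and 0.289 without them). Against YNG, Unc5b, a netrin receptor, was higher in AA by 0.58 (adjusted p = 0.0406), and the type IV collagen genes Col4a1 and Col4a2 were higher in ADQ by 0.57 and 0.54 (adjusted p = 0.0912 and 0.0666, and 0.027 and 0.0436 without the 4 rats). Leaving out the 4 rats changes only the shared spread in ADQ against YNG, and nothing is read from the smaller values. In the list 6 genes were lower in AA and 7 in ADQ than in AV, where 3.1% and 5.9% of all genes were lower. Without the 4 rats none was lower in either and 1 was higher in ADQ.

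Of 43 signal transducers, 2 (Nos3 and Rasip1) had the same 4 highest rats as Angpt2. Nos3, the endothelial nitric oxide synthase, was 325 to 373 in the 4 rats and at most 314 elsewhere, and was lower in ADQ than in AV by 0.68 (unadjusted p = 0.00169, and 0.132 without the 4 rats). Akt2, a kinase downstream of PI3K, was lower than YNG by 0.43 ± 0.08 in ADQ (adjusted p = 0.00312) and by 0.32 ± 0.08 in AA (adjusted p = 0.0317). Hras, a small GTPase of the MAPK route, was lower by 0.54 in AA (adjusted p = 0.0331), and Prkca, protein kinase C alpha, was higher by 0.54 in ADQ (adjusted p = 0.0198). The list had 8 genes higher and 8 lower in ADQ against YNG, and 6 and 7 in AA against YNG, near the 28.1% and 26.6% of all genes that passed in either direction.

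Among 28 hypoxia regulators and targets, Adm (adrenomedullin, a vasodilator peptide) and Slc2a1 (the glucose transporter of the blood-brain barrier) had the same 4 highest rats as Angpt2. Adm was 383 in rat 3989, 137 in rat 4568, 124 in rat 4009 and 72.4 in rat 3999, against at most 25.2 elsewhere. Its difference from AV was −1.42 ± 0.45 in AA (limma unadjusted p = 0.0027) and −1.43 ± 0.45 in ADQ (p = 0.00247), and without the 4 rats −0.35 (p = 0.308) and −0.36 (p = 0.289). Hk2, a hexokinase, was lower in ADQ than in AV by 0.43 (p = 0.000862) and kept its call without the 4 rats (−0.33, p = 0.00864), as did Angptl4 (−0.55, p = 0.000528, and −0.34, p = 0.0214). Mxi1, a repressor of the Myc network, was lower than YNG in ADQ by 0.40 (adjusted p = 0.0311) and in AA by 0.35 (adjusted p = 0.059). Pfkfb3, a regulator of glycolysis, was higher than YNG in ADQ by 0.38 (adjusted p = 0.0256), and Bnip3l, a mitophagy receptor, was lower in AA by 0.34 (adjusted p = 0.0494). Hif1a, the hypoxia-inducible factor itself, was higher than YNG in ADQ by 0.21 (p = 0.0356) and was chosen for mention after its values were seen.

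Between AA and ADQ 4 of the 110 genes were higher and 1 lower at the unadjusted threshold, and none passed after adjustment by limma. Over all genes 2.13% were higher and 2.4% lower unadjusted, 4.53% in either direction (5.39% without the 4 AV rats). The number called in either direction was near this share, and nothing is read from it. Beside the lower Nrp1, Sema3a, a secreted repellent that binds neuropilin, was higher in AA by 0.91 ± 0.42 (unadjusted p = 0.0373), Shc1, an adaptor of receptor kinases, by 0.23 ± 0.09 (p = 0.0109), Mapkapk2, a kinase downstream of p38, by 0.19 ± 0.08 (p = 0.0239) and Ddit4, an inhibitor of mTOR signaling, by 0.24 ± 0.11 (p = 0.0386). The call of Mapkapk2 was lost without AA rats 3984 or 3988 or ADQ rat 4006. That of Sema3a was lost without these 3 or AA rats 3996 or 4107 or ADQ rats 3994, 4032, 4106 or 4110, and that of Ddit4 without the same 3 or AA rats 4035, 4036 or 4107 or ADQ rats 4007, 4074, 4105 or 4106.

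**Figure D5:**
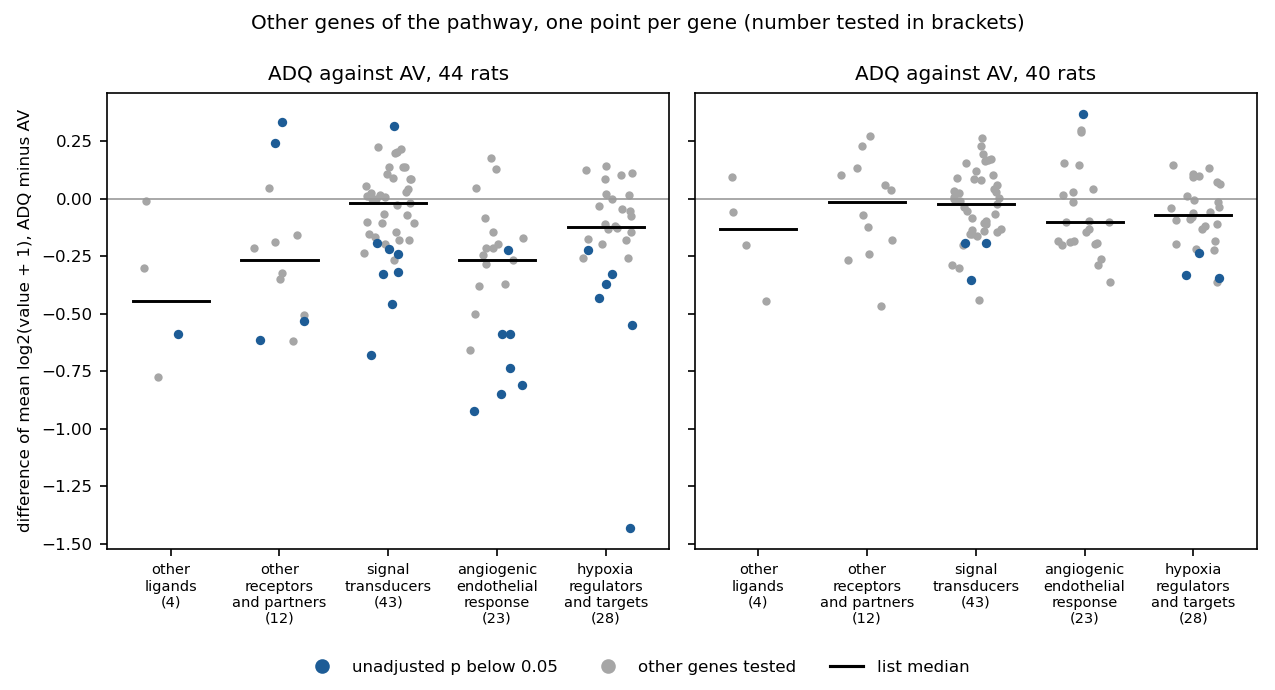
Difference of mean log2(value + 1), ADQ minus AV, of each tested gene of 5 pathway lists, for all 44 rats (left) and the 40 rats without the 4 AV rats (right), with list medians as lines. Blue points passed an unadjusted p of 0.05, 26 of 110 genes with all rats and 7 without the 4.

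Markers of cell types moved with these results. The summed level of 22 endothelial markers ran from 3426 to 8854 in YNG (median 4743), from 5428 to 20323 in AV (median 6659), from 4989 to 7470 in AA (median 5724) and from 4941 to 6400 in ADQ (median 5413). It was 20323, 11692, 10689 and 10516 in rats 3989, 4009, 3999 and 4568, above every other rat. Vwf alone gave 7244, 3519, 2789 and 3069 of these sums, against at most 1325 in the 40 others. Of the 22 markers, 5 had the same 4 highest rats as Angpt2 and 10 had at least 3 of them, where 0.91% and 2.65% of all genes did. Others did not follow, as Abcg2 ranked 7, 44, 38 and 43 and Slco1c1 ranked 3, 38, 15 and 44 in these rats. Of the 22 markers, 17 were higher in AV than in YNG (10 without the 4 rats), and 14 were lower in ADQ and 8 in AA than in AV (3 and 0 without them). Over all genes 10.6% were higher in AV than in YNG, and 5.9% were lower in ADQ and 3.1% in AA than in AV. Pglyrp1 was at 0 in 2 rats, and the other 21 markers were above 0 in every rat. Other cell types moved too. Of 9 oligodendrocyte markers, 8 were higher in AV than in YNG, with and without the 4 rats. In ADQ against AV, 5 of these 9, 7 of 10 microglial and 6 of 6 red blood cell markers were lower. Without the 4 rats these were 2, 3 and 0. No dentate granule, CA1 or CA3 marker tested was called in ADQ against AV. In bulk tissue more cells of a type and more RNA per cell cannot be told apart.

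With the mean level of the endothelial markers as a term, the difference of AV from YNG became 0.38 for Angpt2, −0.10 for Tek and −0.13 for Tie1, and none of the 5 other genes passed. The 4 rats also had the highest values of this mean (7.65 to 8.61 on the log2 scale, against at most 7.62 elsewhere). The term thus carries their pattern, and why the differences shrank was not tested. Tie1 followed this mean most closely (r = 0.85 over 44 rats and 0.88 over 40), and Vegfa, which astrocytes and neurons also make, did not follow it over the 40 rats (0.43 and 0.00). Vegfa and the astrocyte markers had r of 0.56 and 0.55. The 16 markers of pericytes and vascular smooth muscle summed to 3257 to 4073 in the 4 rats and to 1843 to 3565 in the others. Of the 15 tested, 2 (Abcc9 and Kcnj8) had the same 4 highest rats as Angpt2 and 3 had at least 3 of them. Over all genes these shares were 0.91% and 2.65%.

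The 6 markers of T and NK cells summed to 494 to 915 in the 4 rats and to at most 379.6 in the 40 others, and Cd8a, Nkg7 and Prf1 had the same 4 highest rats as Angpt2. Cd3e and Cd4 did not share these 4 highest rats. Cd3e was 159, 26.7, 3.85 and 1.07 in rats 3989, 3999, 4568 and 4009, against a median of 47.0 in the 40 others. Cd4 ranked 2, 3, 19 and 31 of 44 in the same order of rats. Cd8a, Nkg7 and Gzmb were at 0 in 27, 28 and 33 rats. Of the 5 tested, 4 were higher in AV than in YNG, where 10.6% of all genes were. Without the 4 rats 1 was higher, where 9.32% of all genes passed in either direction. Red blood cell markers were highest in rat 3989 at 95413, while rats 4009, 3999 and 4568 had 20647, 12121 and 7270, within the range of the others. Choroid plexus markers were highest in rat 4009 (1477) and were 107 to 239 in the other 3 of these rats, with Otx2 at 0 in 34 of the 44 rats. No marker of astrocytes, oligodendrocytes, dentate granule cells, CA1 or CA3 neurons or meninges had the same 4 highest rats as Angpt2, and neither did any of microglia, red blood cells or choroid plexus. The part of any of these cell types in the results was not tested.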

How the data were processed

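RNA from the dentate gyrus was poly(A) selected and prepared with an Ion Total RNA-Seq kit. Per the submitters' processing notes, STAR 2.5.3a, Partek and DESeq2 were used with build rn6. The values deposited by the authors are a signal normalized by median ratio, not whole reads, so no count model was run. Rows were summed per gene identifier, and genes with a mean of at least 5 were kept (15598 genes). log2(value + 1) was fitted with limma 3.58.1 in R 4.3.3 (trend option), with 1 model of 4 groups and two-sided tests, and calls were made at an unadjusted p of 0.05, the threshold of the study, with Benjamini-Hochberg values beside. A fold change on this scale understates the change of low genes. Each rat is 1 sample. The script was tested on simulated data.

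The members and lists were chosen with earlier results of these data known. Pathway genes named are Flt1, Nrp1, Ptprb, Vegfb, Vegfc, Pgf and Angpt4 and, per list and comparison, the 2 genes with the smallest p. For likeness, the 3 genes with the largest r over 44 rats, with a mean of at least 20, were taken, and those over 40 rats were added later. Of the lists, Figf, Slc2a3, Car9, Pecam1, Abcb1a, Col1a2, Cd3d, Cd3g, Hba1, Hba2, Hba-a3 and Hbb-b1 were not analysed here. Alternatives covered the pseudocount, filter, scaling, rows, groups fitted, series, endothelial term, robust fit and each rat left out. The fit without 4 AV rats was chosen after seeing the data.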

Additional observations from a re-analysis of the deposited data

Results flagged for a closer look

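An outlying rat was sought in YNG alone, for 13 genes, because the test was set for groups of at most 10 rats. AV, AA and ADQ are larger and were not tested. Chance alone flags about 1 gene in 20, and 2 of the 13 genes held an outlying young rat. Tek was 294 in YNG rat V12, with the next rat at 168 and a gap of 0.59 of the range, past the critical value of Dixon's test. Angpt4 was 26.7 in YNG rat V6, with the next rat at 14.7 and a gap of 0.54 of the range. Without rat V12 the difference of AV from YNG in Tek was 0.63.

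Differences from YNG were not the same in the 2 series of rat numbers, by the interaction term of limma (series b minus series a). In AV against YNG, where 21.8% of all genes passed the interaction test, this term was −1.09 for Tek, −1.02 for Tie1 and −1.88 for Kdr, given as a description since the contrast chose Angpt2. In AA against YNG it was −0.65 for Angpt1 (unadjusted p = 0.0361), −1.06 for Tek (p = 0.0011), −0.96 for Tie1 (p = 0.00246) and −1.12 for Kdr (p = 0.0472), none past the threshold after adjustment. In ADQ against YNG, where 8.89% passed, it was −0.71 for Tek (p = 0.0236) and −0.95 for Tie1 (p = 0.00267). In ADQ against AV, where 4.03% passed, it was 1.14 for Kdr (p = 0.0334, adjusted p = 0.961), so Kdr lay further below AV in series a, which holds 3 of the 4 AV rats with high Angpt2.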

How the results depend on the processing

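Counts below are genes called at an unadjusted p of 0.05, differences are on the log2 scale, and the cause of a change was not tested unless given. For fits of a single series, of only the 2 groups compared or with the endothelial term, the share of all genes called was not taken. Their counts are therefore not read as a result about these genes, and a series alone holds fewer rats. With all rats 4 members were called in AA against YNG, 0 in ADQ against YNG, 2 in AA against AV, 2 in ADQ against AV, and Angpt1 alone (1) between the treated groups. Other pseudocounts, filters, scalings, a robust fit and the series as a term turned no direction and moved no such count by over 1.5 times. With the largest row of a gene, 2 members were called in AA against YNG and Tie1 in ADQ against YNG was −0.033. With only the 2 groups compared, 2 members were called in ADQ against YNG, 1 in AA against AV and 2 in AA against ADQ, and 9 pathway genes in AA against ADQ (5 with all groups).

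In series a alone, with fewer rats, members called were 1 in ADQ against YNG, 1 in AA against AV, 4 in ADQ against AV and 0 between the treated groups. Angpt1 in ADQ against YNG was 0.12 and Tek in AA against ADQ 0.15. In series b alone, AV against YNG was −0.13 for Tek and −0.054 for Tie1, with 1 member other than Angpt2 and 9 pathway genes called (4 and 43 with all rats). AA against YNG was −0.46 for Tek, −0.22 for Tie1, −0.25 for Flt1, −0.33 for Ptprb and 0.031 for Vegfb, with 2 members and 13 pathway genes called (34 with all rats). ADQ against YNG was −0.26 for Tek, −0.52 for Tie1, −0.42 for Ptprb and 0.030 for Vegfb, with 1 member and 9 pathway genes (37 with all rats). Vegfa in AA against AV was 0.025, with 0 members called there and 1 in ADQ against AV.

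With endothelial markers as a term, AV against YNG was 0.38 for Angpt2, −0.10 for Tek and −0.13 for Tie1, with 0 other members and 18 pathway genes called. AA against YNG was −0.18 for Tek and −0.020 for Tie1 (1 member called), and ADQ against YNG −0.019 for Tek and −0.18 for Tie1. AA against AV was 0.11 for Tie1 and 0.0048 for Vegfa (0 members and 0 pathway genes), and ADQ against AV 0.080 for Tek and 0.12 for Flt1 (0 members and 2 pathway genes). AA against ADQ was −0.054 for Angpt2 and −0.047 for Kdr.

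Without the 4 AV rats, AV against YNG was 0.83 for Angpt2, with 1 other member and 19 pathway genes called, and 2 members were called in ADQ against YNG. AA against AV was 0.23 for Angpt2, 0.023 for Tie1, 0.30 for Vegfa and 0.11 for Kdr (0 members and 0 pathway genes), and ADQ against AV was 0.12 for Vegfa (0 members and 7 pathway genes, 26 with all rats).

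Leaving out each rat gave 1.97 (without AV rat 3989) to 2.67 for Angpt2 in AV against YNG, and 4 to 5 other members called. Members called were 2 to 4 in AA against YNG, 0 in ADQ against YNG, 0 to 2 in AA against AV, 2 to 4 in ADQ against AV and 0 to 1 between the treated groups. Pathway genes called were 39 to 49, 28 to 41 and 27 to 40 in AV, AA and ADQ against YNG, 8 to 18 in AA against AV (17 or 18 without AV rats 4011, 4567 or 4569 or AA rat 4107), 20 to 34 in ADQ against AV, and 2 to 9 in AA against ADQ, moved by over 1.5 times by AA rats 3984, 3988, 4069, 4077 and 4107 and ADQ rat 4006. Uncalled differences that changed sign were Angpt1 in ADQ against YNG (−0.15 to 0.022, without ADQ rat 3994 or YNG rat V9), Tie1 in ADQ against YNG (−0.064 to 0.15, without YNG rat V5) and Tek in AA against ADQ (−0.11 to 0.0077, without ADQ rat 4005 or AA rat 4069). Upper quartile scaling moved the genes called over all from 1651 higher and 1675 lower to 2011 and 1284 in AV against YNG, from 1959 and 2194 to 2383 and 1838 in AA against YNG, and from 2104 and 2282 to 2529 and 1948 in ADQ against YNG. No paired analysis was possible because rat names mark single animals and no number is shared between groups.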
